A study of Mus musculus with 3 samples.

Results

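A small set of hippocampal microglia held many transcripts of the chemokine genes Ccl3 and Ccl4 and few transcripts of the genes that mark lipid-associated microglia. These cells, called members below, numbered 157 among the 19791 cells of the series that passed the depth filters. They were chosen by the measured counts themselves: at least 1000 UMIs (unique molecular identifiers, which count captured RNA molecules), at least 500 genes, at most 10% of UMIs from mitochondrial genes, at least 6 UMIs of Ccl3 and Ccl4 together, at most 1 detected gene of a lipid-state set, and under 20 UMIs of the MHC class II genes H2-Aa, H2-Ab1 and H2-Eb1 together. The lipid-state genes counted were Spp1, Lpl, Lgals3, Itgax, Gpnmb and Cst7. Clec7a, which the rule also lists, was not analysed here. The reference was the 18185 passing cells with no Ccl3 or Ccl4 UMI and at most 1 lipid-state gene. No limit on MHC class II applied to the reference.

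The cells came from both hippocampi of mice with the genotype Cx3cr1CreERT2/+; Rosa26tdTomato/+; NestinTK-eGFP/+. Every cell compared carried all 3 alleles: a tamoxifen-inducible Cre recombinase at 1 copy of Cx3cr1, a gene of microglia and related macrophages, a tdTomato reporter and a thymidine kinase and eGFP transgene named for Nestin. Tamoxifen was given to all mice for 4 days at 100 mg/kg. After perfusion and removal of myelin, viable tdTomato+ cells were sorted and sequenced with 10x Genomics reagents in 3 runs, from 12 animals, 6 male and 6 female. The labels give no age and do not assign animals to runs, so the run was the replicate (n = 3). The p-values rest on the spread between runs, which may be technical. In the fit of members against the reference, this spread was taken from a trend shared by all genes. The same held for cells with 3 to 5 chemokine UMIs and for the sex interaction. It also held for members against chemokine-high cells with 3 or more lipid-state genes. In these fits a gene's own spread between runs therefore entered little into its p-value and SE. For that reason, values of single runs are given for many genes.

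CCL3 and CCL4 are small secreted proteins of the CC chemokine family that attract monocytes, T cells and other leukocytes through G protein-coupled receptors. CCR1 is a receptor for CCL3. In the brain, microglia are a main source. Their transcription is rapid: Toll-like and cytokine receptors act through NF-kappaB and AP-1, and growth signals act through the immediate early factors of the EGR family. Immediate early and chemokine transcripts are also known to rise in microglia while brain tissue is being taken apart.

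Ccl3 and Ccl4 lie close to each other on chromosome 11 of the GRCm38 assembly. In the GENCODE M21 annotation, the protein-coding gene Ccl3 (ENSMUSG00000000982) spans chr11:83647844-83649355 on the minus strand, and Ccl4 (ENSMUSG00000018930) spans chr11:83662584-83664683 on the plus strand. Ccl2, at chr11:82035571-82037453, belongs to a second chemokine group on the same chromosome. The sequences just upstream of Ccl3 and of Il1b and Gadd45b, which were higher in the members, are shown because Ccl3 defines the members and the other pair hold a searched motif. Each line gives the 150 bases before the RefSeq start site in GRCm38.p6, 5′ to 3′ on the gene's strand: Ccl3 at chr11:83649379-83649528 (minus), Il1b at chr2:129371140-129371289 (minus) and Gadd45b at chr10:80929941-80930090 (plus). Capitals mark matches to the searched motifs.
Ccl3: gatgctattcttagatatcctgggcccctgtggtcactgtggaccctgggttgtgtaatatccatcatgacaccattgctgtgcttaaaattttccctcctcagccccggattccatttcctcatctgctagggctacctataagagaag
Il1b: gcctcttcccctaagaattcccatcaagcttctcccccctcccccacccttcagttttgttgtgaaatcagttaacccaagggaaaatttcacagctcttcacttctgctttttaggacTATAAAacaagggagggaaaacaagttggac
Gadd45b: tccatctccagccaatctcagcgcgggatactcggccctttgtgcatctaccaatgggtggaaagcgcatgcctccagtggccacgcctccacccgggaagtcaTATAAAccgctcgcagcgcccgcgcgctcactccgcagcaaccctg
The search used 5 motifs on both strands in RefSeq windows from 250 bases before to 50 bases after a start: NF-kappaB (GGG and CC with any 5 bases between them), AP-1 (TGANTCA), CRE (TGACGTCA), a TATA box (TATAAA) and ETS/PU.1 (GAGGAAGT). The letters TATAAA stood in the windows of Il1b and Gadd45b, at -31 and -46 from the start, and in 13.6% of all 32851 windows. Among genes named as lower in the members, they stood in windows of Ak1, Gsg1 and Tmem229b. None of the 5 motifs was matched in the Ccl3 window. The NF-kappaB letters stood in the windows of 5 of the 7 genes with a window among the 12 named as higher in the members, Atf3, Dusp2, Egr2, Nes and Nr4a1, and of 6 of 9 among the 12 named as lower, beside 50.8% of all windows. The other shares of all windows were 7.81% for AP-1, 1.79% for CRE and 3.20% for ETS/PU.1. A gene was counted if any of its windows matched, and some genes, such as Egr2 and Ak1, have several windows. Counts of genes are therefore not like for like with shares of single windows and tend to stand above them. A match is a description of the letters and not a site of binding.

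The members made up 0.558% of passing cells in run 1 (39 of 6993; 95% exact binomial interval 0.397 to 0.762%), 0.610% in run 2 (41 of 6720; 0.438 to 0.827%) and 1.27% in run 3 (77 of 6078; 1.00 to 1.58%). The mean was 0.812 ± 0.395% (SD, n = 3 runs), and 0.584% without run 3. At this threshold run 3 stood above both others, and its interval did not overlap with theirs; the intervals cover counting error only. The order depended on the threshold: at 12 or more Ccl3 and Ccl4 UMIs the shares were 0.300, 0.476 and 0.526% (21, 32 and 32 cells), with overlapping intervals, and at 20 or more they were 0.229, 0.357 and 0.263% (16, 24 and 16 cells), with run 2 highest. When cells were thinned to 2000 UMIs with a threshold of 3, leaving out 646 shallower cells, the shares were 0.580, 0.821 and 1.61% in runs 1, 2 and 3. Members were somewhat deeper than the reference, with a median of 4791, 4161 and 4159 UMIs per cell against 4391, 3409 and 3650.

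The number of chemokine UMIs per member varied widely. The median of Ccl3 and Ccl4 together was 12, 27 and 10 UMIs in runs 1, 2 and 3, and the highest cell of each run held 246, 545 and 276. Of the 157 members, 54 held 6 to 9 UMIs, 56 held 20 or more and 16 held 100 or more. Both transcripts were present in 124 members, Ccl3 was missing in 17 and Ccl4 in 16. Ccl4 exceeded Ccl3 in 97 members, and summed Ccl4 UMIs were 2.10, 1.51 and 1.69 times the Ccl3 UMIs in runs 1, 2 and 3. The members held 62.1% of all Ccl3 and Ccl4 UMIs of the passing cells. At least 1 such UMI was found in 6.91% of passing cells, and in 0 of 58 cells rich in choroid plexus transcripts, which served as background (upper exact limit 6.16%; median depth 2826.5 UMIs against 3840.0 for all passing cells). The threshold cut through a continuous range: 32 cells held 5 UMIs and met the other conditions, and 23 members held exactly 6. Of the lipid-state genes, 104 members had none and 53 had 1, which was Lpl in 30, Cst7 in 13, Lgals3 in 6 and Spp1 in 4. A further 24 cells with 6 or more chemokine UMIs had 2 lipid-state genes and 4 were left out for their MHC class II UMIs.

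**Figure D1:**
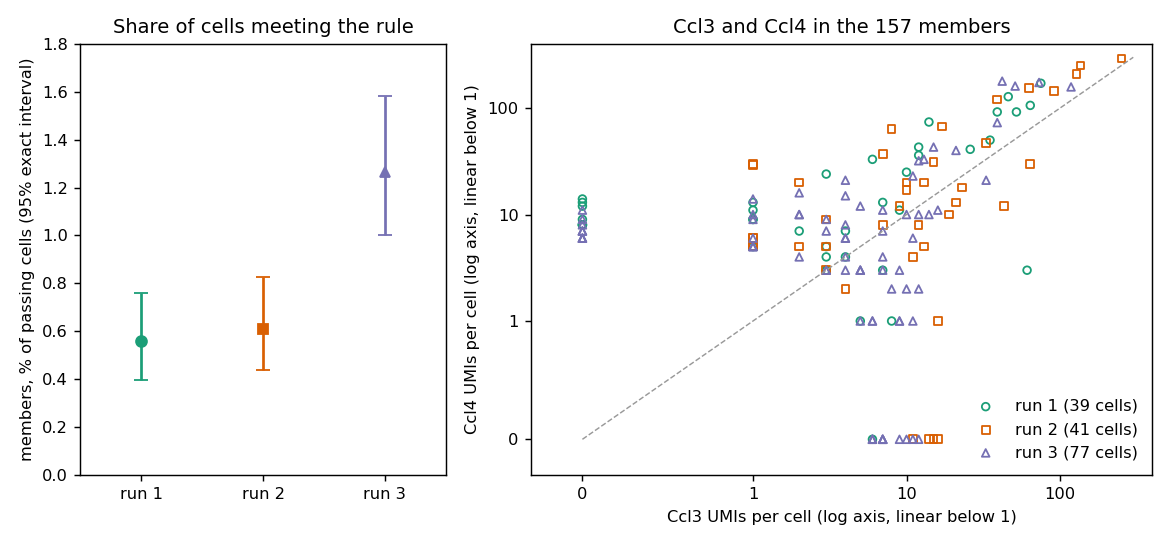
Left, percent of passing cells that met the rule in each run, with 95% exact binomial intervals; run 3, at 1.27%, lies above runs 1 and 2. Right, Ccl3 against Ccl4 UMIs in each of the 157 members (log axes, linear below 1), by run, with a dashed line of equality; 97 members lie above the line.

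The members carried microglial markers. All 157 members had at least 3 UMIs of a list of 10 microglial genes, whose summed level was 25925, 32154 and 28688 CPM (UMIs per 1000000 UMIs of the population) in members of runs 1, 2 and 3 and 33529, 42766 and 34893 CPM in the reference. Members held 207171, 185794 and 355930 UMIs in runs 1, 2 and 3, against 30934438, 22648511 and 20473085 in the reference. A count of 0 is thus reached more easily in members. Of 72 marker genes in 11 lists of other cells, 36 had no UMI in any member. These were 8 of 9 T or NK cell genes, 5 of 6 neutrophil genes (S100a8, S100a9, Retnlg, Ngp and Camp), 5 of 6 endothelial and 4 of 5 B cell genes, 3 of 6 each of the monocyte, neuron and choroid plexus genes, 3 of 7 oligodendrocyte genes, 1 of 9 astrocyte genes, 1 of 5 dendritic cell genes and none of the border-associated macrophage genes. The astrocyte list stood at 290, 178 and 177 CPM in members and 401, 266 and 256 CPM in the reference of runs 1, 2 and 3, and 18 members held 3 or more of its UMIs. The list of 7 border-associated macrophage genes, among them Mrc1 and Pf4, stood at 0, 32.3 and 258 CPM in members against 118, 44.6 and 98.0 CPM, with 4 members holding 3 or more of its UMIs. The monocyte list stood at 0, 10.8 and 2.81 CPM against 10.3, 21.4 and 20.1. The list of 6 choroid plexus genes ran from 0 to 14.0 CPM in members and from 119 to 994 CPM in the reference. Both Xist and Y-linked UMIs, a sign of mixed droplets, were found in 8 members, and no doublet caller was run. Members made up 1.27, 1.77 and 1.73% of cells with this sign in runs 1, 2 and 3. They made up 0.558, 0.610 and 1.27% of all passing cells, so the sign was more frequent in members of every run. With so few cells, the exact binomial intervals of the former shares were wide (0.262 to 3.65, 0.215 to 6.25 and 0.359 to 4.98%) and held the latter. The runs shared 26 cell barcodes, none of them a member's.

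Summed per run and compared with the reference by edgeR's quasi-likelihood test with run as a block, 705 of 11274 tested genes differed at an adjusted p under 0.05 (6.25%), 416 higher (3.69%) and 289 lower (2.56%). The genes of the rule were not tested. Counts of calls in gene lists against the reference, given below, are to be read beside these shares. Of the called genes, 198 were at least 2-fold higher and 70 at least 2-fold lower. The ranges of the 2 populations did not overlap for 558 of the called genes, a count that was not made over all tested genes. Since a call itself favours separated ranges, that count adds no support to the calls. The number of calls rested on each run: it was 399 without run 1, 375 without run 2 and 642 without run 3, and 153 without the block. With DESeq2 size factors in edgeR the split was 523 higher and 228 lower, so 69.6% of calls were higher in place of 59.0%. Most higher calls were spread over cells, with a median of 61 members holding a UMI, while 16 of the 416 rested on under 10 members and 4 took over 50% of their UMIs from 1 cell. The median log2 change of all tested genes was -0.09, and 3959 of them had under 10 UMIs in the members.

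**Figure D2:**
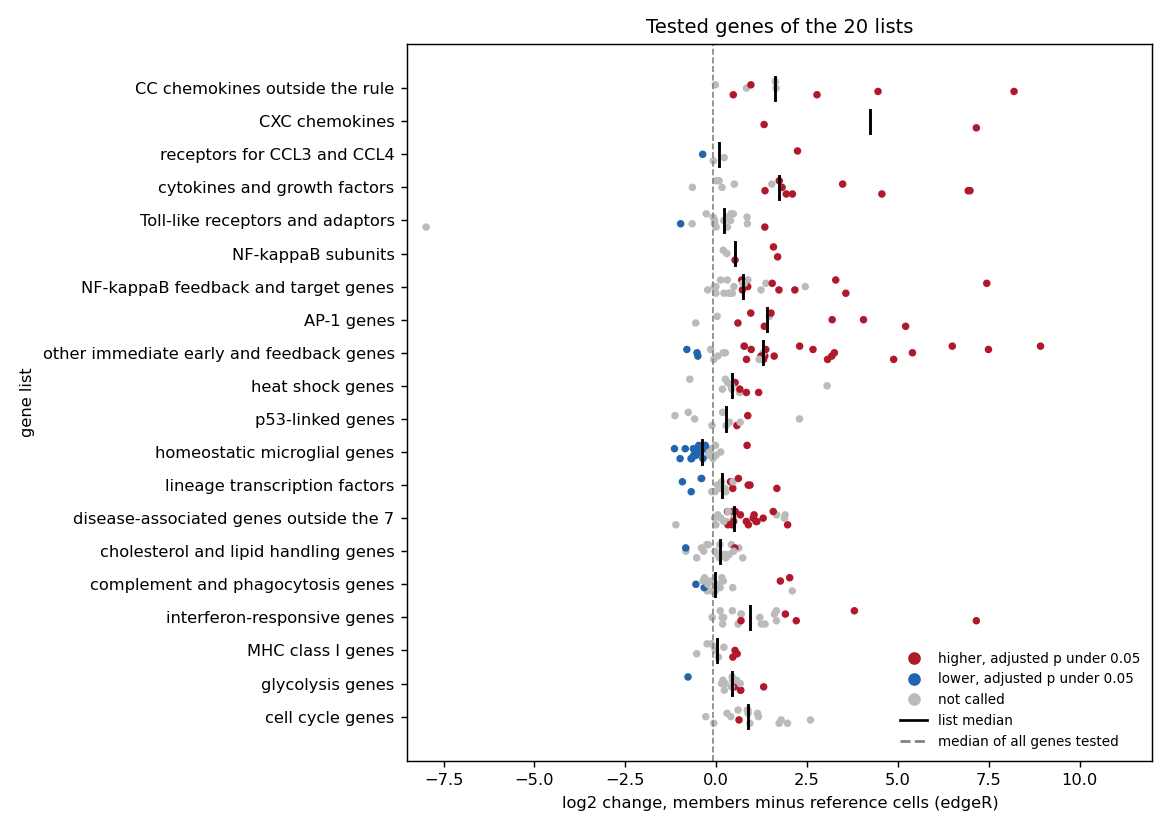
Fitted log2 change (members minus reference) of each tested gene in 20 lists, with the list median as a black bar and the median of all tested genes, -0.09, as a dashed line. Red and blue points were called higher and lower; chemokine, cytokine and immediate early lists extend to the right, and most homeostatic genes lie left of the dashed line. The grey point at the far left is Tlr9, which had 0 UMIs in the members.

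Among ligands, the members expressed other inflammatory chemokines together with Ccl3 and Ccl4. Ccl2, the main attractant of CCR2-positive monocytes, stood at 806, 1319 and 930.0 CPM in members of runs 1, 2 and 3 and at 2.36, 2.52 and 6.35 CPM in the reference. Every run of members lay far above every run of the reference. The log2 change was 8.19 ± 0.16 (SE), and 58 of 157 members held a Ccl2 UMI, 36.9% of members against 1.03% of reference cells. The UMIs were uneven between cells: the top cell held 118 of the 743 Ccl2 UMIs in members (15.9%). Ccl12, another CCR2 ligand, stood at 690.3, 1017 and 947 CPM against 110.0, 134 and 158, without overlap (log2 change 2.77 ± 0.12, adjusted p 4.25e-114). Ccl9 (608, 312 and 359.6 CPM against 218, 237 and 217) and Ccl6 (280.0, 269 and 216 CPM against 185, 203 and 181), which microglia express without stimulation, rose by smaller amounts, with log2 changes of 0.95 ± 0.13 and 0.47 ± 0.15. The call of Ccl6 was lost without run 1 or run 2 (adjusted p 0.387 and 0.187). Ccl7 was called from 8 members (log2 change 4.45 ± 0.78), and the call was lost when cells high in immediate early genes were left out (adjusted p 0.332). In all, 5 of 9 tested CC chemokines outside the rule were higher and none was lower, with a median log2 change of 1.63. Ccl5 was found in 1 member and was not called.

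Of the CXC chemokines, 2 were tested and both were called. Cxcl16, a membrane-bound ligand of CXCR6, stood at 179, 145 and 73.0 CPM against 48.3, 54.6 and 52.6 in runs 1, 2 and 3 (log2 change 1.32 ± 0.20), and the ranges did not overlap. Cxcl10, an interferon-induced ligand of CXCR3, stood at 0, 845 and 28.1 CPM against 0.840, 2.25 and 0.342, so the ranges overlapped. Its UMIs came from 5 members, and 1 cell held 83.8% of them. Cxcl1 had no UMI in either population, and Cxcl2 had 0 UMIs in members and 10 in the reference.

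**Figure D3:**
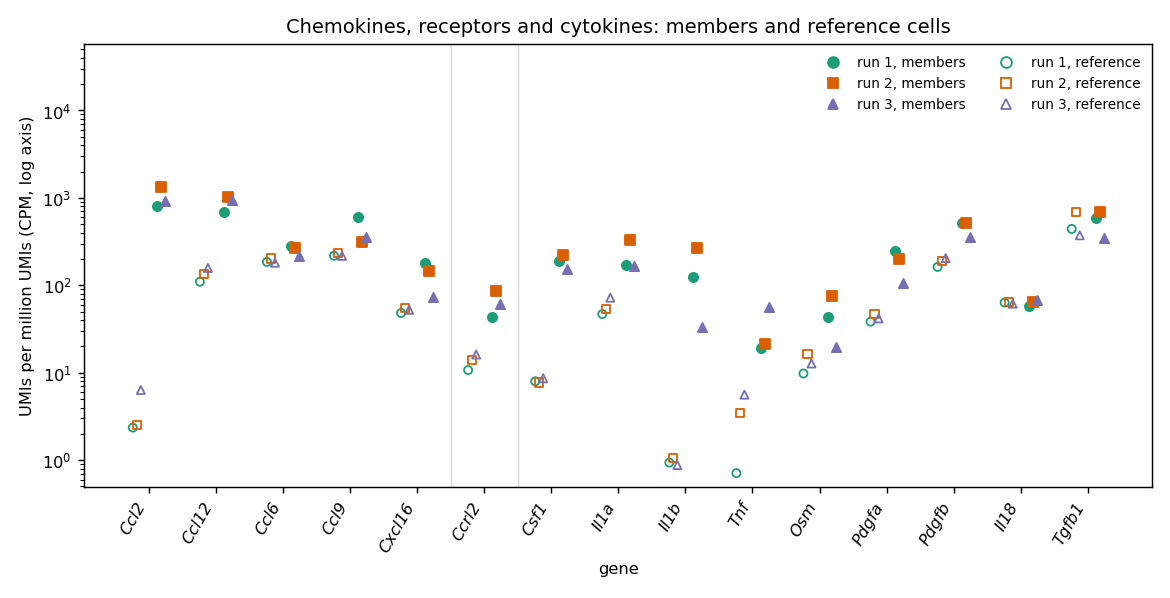
CPM (log axis) of chemokines, receptors and cytokines in the summed members (filled) and reference cells (open) of each run. Ccl2, Csf1 and Il1b separate most, and Il18 and Tgfb1 lie at like levels in both.

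Of the receptor genes, Ccr1 was not called and the related Ccrl2 was higher in the members. Ccr1 was found in 7 members (0, 21.5 and 25.3 CPM against 19.2, 18.5 and 18.6 in the reference), with overlapping ranges. Ccrl2, which binds chemerin and does not signal, stood at 43.4, 86.1 and 61.8 CPM against 10.7, 14.0 and 16.2 and was higher in every run (log2 change 2.24 ± 0.32, adjusted p 4.81e-10).

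Cytokine and growth factor genes were higher in 9 of 15 tested and lower in none, with a median log2 change of 1.73. Csf1, a ligand of the receptor on which microglial survival depends, stood at 188, 221 and 155 CPM in members against 7.98, 7.73 and 8.65 CPM, with UMIs in 48 members (log2 change 4.56 ± 0.25, adjusted p 4.99e-73). Il1a, which encodes interleukin 1 alpha, stood at 169, 328 and 166 CPM against 46.9, 53.5 and 72.2 (log2 change 1.93 ± 0.17). Il1b was rarer: 126, 269 and 33.7 CPM against 0.937, 1.06 and 0.879, from 13 members (log2 change 6.93 ± 0.64, adjusted p 5.17e-25). For these 3 genes no run of members overlapped with the reference, although Il1b itself ranged widely between runs of the members. Tnf was found in 19 members (19.3, 21.5 and 56.2 CPM against 0.711, 3.49 and 5.62; log2 change 3.48 ± 0.65), and its call was lost without run 3 (adjusted p 0.0835). Pdgfa (246, 199 and 107 CPM against 38.4, 47.4 and 41.9) and Pdgfb (516, 511 and 357 CPM against 162, 191 and 205), growth factors for mural and glial progenitor cells, were both higher, with log2 changes of 2.10 ± 0.18 and 1.34 ± 0.13. Osm and Hbegf, ligands of the oncostatin M and EGF receptors, were also called at 1.73 ± 0.37 and 1.81 ± 0.46. Osm was lost without run 2 (adjusted p 0.138) and Hbegf without run 2 or run 3 (adjusted p 0.073 and 0.115). Gdf15, a stress-induced cytokine, rested on 5 members and was lost without run 1 (adjusted p 0.216). Il18 and Tgfb1 differed by 0.08 ± 0.23 and 0.16 ± 0.11 on the log2 scale, with overlapping ranges, and Il6 was not called.

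Of Toll-like receptors and adaptors, which act upstream of such ligands, 15 of 17 were not called, beside 10569 of 11274 of all tested genes. Tlr2, a receptor for bacterial lipoproteins, stood at 145, 264 and 171 CPM in members and 71.1, 95.5 and 69.5 CPM in the reference (log2 change 1.34 ± 0.17, adjusted p 9.57e-13). Tlr3, a sensor of double-stranded RNA, stood at 33.8, 32.3 and 47.8 CPM against 88.6, 67.0 and 85.3 (log2 change -0.98 ± 0.26), a call lost without run 1 (adjusted p 0.117). The former was higher and the latter lower in the members of every run, without overlap. Tlr4 and Myd88, the lipopolysaccharide receptor and the adaptor of most of the family, differed by -0.04 ± 0.26 and -0.66 ± 0.31 with overlapping ranges.

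Of the 5 NF-kappaB subunits, 3 were called higher, beside 3.69% of all tested genes. Relb, a subunit of the non-canonical arm, stood at 48.3, 75.4 and 53.4 CPM against 19.5, 25.1 and 17.4 (log2 change 1.57 ± 0.31, adjusted p 1.64e-05), and its call was lost among cells with none of the lipid-state genes (adjusted p 0.387). Nfkb2 and Nfkb1 changed by 1.69 ± 0.45 and 0.52 ± 0.16, and both calls were lost without run 1 (adjusted p 0.613 and 0.517), that of Nfkb1 also without run 3 (adjusted p 0.11). Rela, the main activating subunit, stood at 62.8, 70.0 and 78.7 CPM against 64.8, 74.7 and 59.7, and its ranges overlapped.

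NF-kappaB feedback and target genes were higher in 9 of 26 tested and lower in none, with a median log2 change of 0.73. Cd83, a membrane protein of activated myeloid cells, stood at 1284, 1173 and 506 CPM in members against 73.6, 101 and 71.2 CPM (log2 change 3.56 ± 0.12, adjusted p 1.71e-174), with UMIs in 106 members. Gadd45b, a stress-response gene, stood at 193, 70.0 and 59.0 CPM against 0.420, 0.618 and 0.684 (log2 change 7.44 ± 0.71). Nfkbid, an inhibitor of NF-kappaB in the nucleus, stood at 57.9, 80.7 and 53.4 CPM against 5.85, 5.78 and 8.21 (log2 change 3.29 ± 0.40). For these 3 genes, members of every run lay above the reference of every run. The classical inhibitor Nfkbia rose less (237, 323 and 253 CPM against 208, 137 and 129; log2 change 0.87 ± 0.15), as did Plek, Marcksl1 and Icam1, with log2 changes of 1.54, 2.16 and 0.70, the last lost without run 1 (adjusted p 0.12). Bcl2a1b changed by 0.72 ± 0.14 and Bcl2a1a, at 0.44 ± 0.27, was not called; these copies are near identical, so the split of reads between them is uncertain. Tnfaip3, the gene of the feedback enzyme A20, stood at 9.65, 16.1 and 28.1 CPM against 19.3, 16.6 and 23.6 and was not called.

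Most immediate early genes were higher in the members, and this group also set run 3 apart. Of AP-1 genes 7 of 10 tested were higher (median log2 change 1.39), and of other immediate early and feedback genes 18 of 29 were higher and 3 were lower (median 1.29). Egr1, a zinc finger factor induced within minutes of many signals, stood at 275, 549 and 643 CPM in members and 0.970, 1.10 and 254 CPM in the reference of runs 1, 2 and 3. Reference cells of run 3 thus reached almost the level of run 1 members, and the difference was far larger within runs 1 and 2. The fitted log2 change was 5.40 ± 0.19. Fos, a subunit of AP-1, followed the same pattern, with 33.8, 80.7 and 208 CPM against 0.517, 1.02 and 51.4 (log2 change 3.19 ± 0.30), and Jun, its partner, stood at 289.6, 328 and 1644 CPM against 101, 188 and 1099 (log2 change 0.95 ± 0.12).

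Cells with 10 or more UMIs of Fos, Egr1, Ier2 and Jun together made up 12.8, 22.0 and 48.1% of members and 0.0456, 0.0635 and 20.7% of reference cells in runs 1, 2 and 3. Members exceeded the reference within each run. None of the 4 transcripts was found in 16 of 39, 12 of 41 and 2 of 77 members. When cells with 10 or more such UMIs were left out of both populations, 725 genes were called, and Ccl2, Csf1, Cd83 and Atf3 stayed called. The 4 genes that chose those cells are not read in that fit. Whether the immediate early transcripts arose during tissue preparation was not tested.

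Other regulators of this group were low in the reference of all 3 runs. Egr3 stood at 164, 139.9 and 157 CPM in members and 0.162, 0.0442 and 1.07 CPM in the reference (log2 change 8.92 ± 0.65; 30 members), the largest change among called genes that met the naming rule. Atf3, a stress-induced factor of the ATF family, stood at 608, 727 and 275 CPM against 8.57, 16.8 and 18.8 (log2 change 5.21 ± 0.16; 78 members). Egr2, at 53.1, 291 and 42.1 CPM against 0.129, 0.353 and 1.76, and the nuclear receptor Nr4a1, at 77.2, 135 and 39.3 CPM against 0.550, 0.618 and 1.71, changed by 7.49 ± 0.72 and 6.49 ± 0.69. For these 4 genes members of every run lay above the reference of every run. Id2, an inhibitor of helix-loop-helix factors, stood at 294, 231 and 287 CPM against 33.2, 25.3 and 42.3 (log2 change 3.06 ± 0.17), and the phosphatase gene Dusp2 and the GTPase gene Gem changed by 4.88 ± 0.69 and 5.26 ± 0.45. Nes, which encodes the intermediate filament nestin and whose name the transgene carries, stood at 111, 96.9 and 81.5 CPM against 1.52, 2.16 and 2.15 (log2 change 5.68 ± 0.54; 35 members); whether transgene reads were counted under Nes was not tested. Pou3f1, a POU-domain transcription factor, had 17 UMIs in members and 16 in the far larger reference. The 3 lower genes were Zfp36l2 (-0.81 ± 0.14), which encodes an RNA-binding protein, Rgs2 (-0.53 ± 0.12), a regulator of G protein signalling, and the ERK phosphatase gene Dusp6 (-0.51 ± 0.15). The calls of Rgs2 (adjusted p 0.373 and 0.123) and Dusp6 (adjusted p 0.55 and 0.128) were lost without run 1 or run 2.

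Homeostatic microglial genes moved the other way, by smaller amounts. Of 24 tested, 15 were lower and 1 was higher, beside 2.56 and 3.69% of all tested genes. Their median log2 change was -0.40. Tmem119 stood at 979.9, 1313 and 1340.2 CPM in members and 1913, 2861 and 2112 CPM in the reference (log2 change -0.85 ± 0.08, adjusted p 2.11e-22). P2ry12, the purine receptor that guides microglial processes, stood at 2283, 2702 and 2354 CPM against 3788, 5032 and 3625 (log2 change -0.69 ± 0.07), and Selplg changed by -0.63 ± 0.07. These 3 genes did not overlap, yet 147, 154 and 155 of the 157 members held a UMI of Tmem119, P2ry12 and Selplg. Nrip1 and the adenosine receptor gene Adora3 fell by more, with log2 changes of -1.15 ± 0.13 and -0.99 ± 0.21, the latter call lost without run 2 (adjusted p 0.0823). Cst3, Sparc, Fcrls and Csf1r were not called. Cx3cr1, of which 1 copy is the Cre allele in all cells, changed by -0.37 ± 0.08. The exception was Gpr84, a receptor for medium-chain fatty acids that rises in inflammation (0.85 ± 0.17); its call was lost without run 1 (adjusted p 0.104).

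Lineage transcription factors were mixed, with 6 of 19 tested higher and 3 lower, beside 3.69 and 2.56% of all tested genes. Hif1a, the oxygen-sensitive factor, changed by 1.67 ± 0.17 and was higher in every run (343, 194 and 179.8 CPM against 84.2, 63.5 and 78.4). Cebpb stood at 739, 425 and 480.4 CPM against 325, 253 and 302 and Cebpd at 126, 108 and 208 CPM against 273, 307 and 317, so these related factors changed in opposite directions (0.93 ± 0.12 and -0.93 ± 0.16). Sall1, which holds microglial identity, fell (-0.69 ± 0.15), and Runx1 and Irf8 rose (0.61 ± 0.17 and 0.39 ± 0.10). The call of Runx1 was lost without run 2 or run 3 (adjusted p 0.0782 and 0.116) and that of Irf8 without run 1 or run 2 (adjusted p 0.283 and 0.0902). Irf1 was called at 0.88 ± 0.25, a call lost without run 1 (adjusted p 0.211) and without run 2 (adjusted p 0.72).

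**Figure D4:**
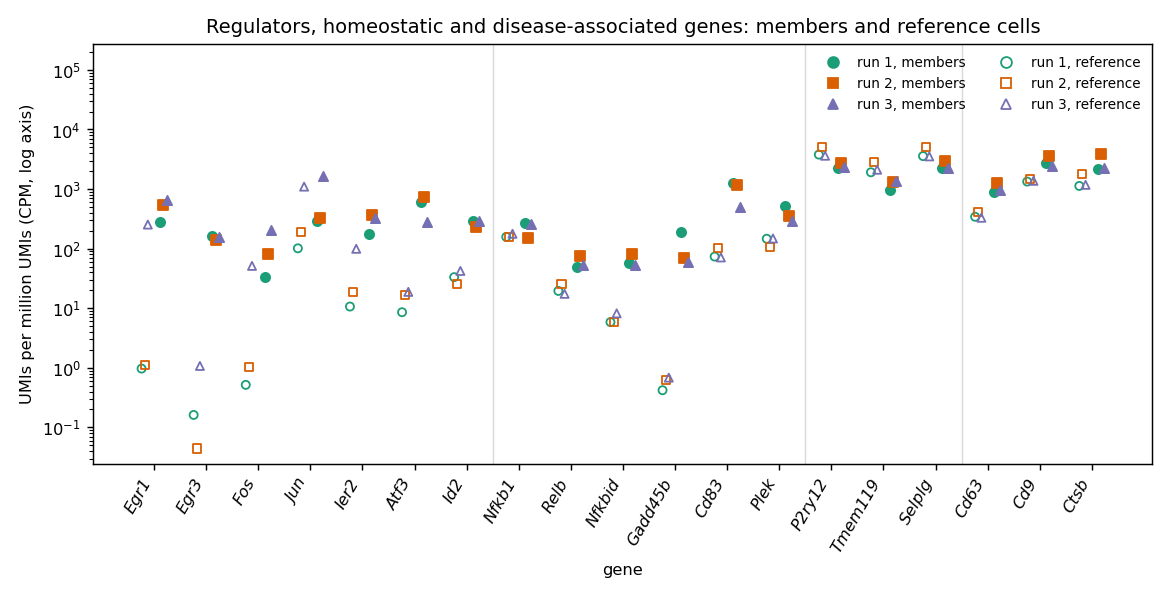
CPM (log axis) of regulators, NF-kappaB genes, homeostatic genes and disease-associated genes in the summed members (filled) and reference cells (open) of each run. Egr1, Fos and Jun of the run 3 reference lie near the members, and Atf3 and Gadd45b separate in all runs.

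Although the rule kept cells with few lipid-state genes, other genes of the disease-associated state were higher. Of 28 tested outside the rule, 16 were higher and none lower, beside 3.69 and 2.56% of all tested genes. Their median log2 change was 0.50. Cd63, a tetraspanin of late endosomes, stood at 883, 1281 and 969 CPM in members and 343, 419 and 330.1 CPM in the reference (log2 change 1.57 ± 0.10). Cd9, a tetraspanin of the cell surface, stood at 2780.3, 3628 and 2458 CPM against 1336, 1469 and 1375 (1.12 ± 0.08), and Ctsb, which encodes the protease cathepsin B, at 2138, 3934 and 2219.5 CPM against 1128, 1808 and 1177 (1.04 ± 0.08). All 3 separated without overlap. Apoe, the carrier of cholesterol, stood at 1023, 5006 and 3197 CPM against 1210.2, 1111 and 1099: members of run 1 lay below the reference and those of runs 2 and 3 above it (log2 change 1.29 ± 0.08). A single cell held 23.3% of the members' Apoe UMIs, and DESeq2 did not call the gene (adjusted p 0.449). Trem2, the receptor through which this state forms, and its adaptor Tyrobp were not called (-0.01 ± 0.07 and 0.21 ± 0.07), although Tyrobp was with DESeq2 size factors (adjusted p 0.00386). Of cholesterol and lipid handling genes, 18 of 20 were not called, beside 10569 of 11274 of all tested genes. Npc2 was higher (0.51 ± 0.10, lost without run 2, adjusted p 0.0849). Apobec1 was lower (-0.84 ± 0.28, adjusted p 0.187, 0.238 and 0.18 without runs 1, 2 and 3).

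The complement receptor genes C5ar1 and C3ar1 were higher, and the C1q genes were not called. C5ar1, the receptor for C5a, stood at 473, 463 and 256 CPM in members and 77.3, 132 and 91.6 CPM in the reference (log2 change 2.02 ± 0.15), and C3ar1 at 512, 759 and 382 CPM against 163, 178 and 146 (1.76 ± 0.13). C1qa, C1qb and C1qc, which form the recognition protein of the classical pathway, changed by -0.03, 0.11 and -0.03 on the log2 scale, with overlapping ranges and no call; C1qb was called with DESeq2 size factors (adjusted p 0.0372). Of 19 complement and phagocytosis genes tested, 2 were higher and 2 lower, beside 3.69 and 2.56% of all tested genes. The lower were Elmo1, an engulfment gene (-0.56 ± 0.14; lost without run 2, adjusted p 0.0948), and the Fc receptor gene Fcgr3 (-0.33 ± 0.09; lost without run 1 or run 2, adjusted p 0.448 and 0.228).

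The remaining lists held calls as well, beside 3.69% of all tested genes called higher. Of glycolysis genes, 5 of 15 were higher and 1 was lower: Pfkfb3, an activator of glycolytic flux, changed by 1.30 ± 0.26 and Hk2, a hexokinase gene, by -0.78 ± 0.15. Heat shock genes were higher in 4 of 13, led by Hspd1 (217, 145 and 171 CPM against 85.2, 75.8 and 84.6; 1.17 ± 0.17), and Hspa1a was found in 3 members. MHC class I genes were higher in 3 of 10, H2-D1, H2-K1 and B2m, with log2 changes of 0.58, 0.52 and 0.46; the first pair are similar in sequence and their reads may be split. Interferon-responsive genes were called in 5 of 20. Of these, Cxcl10, Ifit2 and Rsad2 took 83.8, 86.7 and 79.2% of their UMIs from 1 cell. The calls of Ifit2 and Rsad2 were lost without run 3 (adjusted p 0.944 and 0.927). Of p53-linked genes 2 of 11 were higher, Bax (0.57 ± 0.17) and Cdkn1a (0.87 ± 0.27), and leaving out a run ended both calls: Bax without run 1 or run 2 (adjusted p 0.239 and 0.166) and Cdkn1a without runs 1, 2 and 3 in turn (adjusted p 0.0978, 0.156 and 0.211). Of cell cycle genes 1 of 16 was higher, Hmgb2 (0.63 ± 0.19; lost without run 2 or run 3, adjusted p 0.664 and 0.116), and Mki67 and Top2a came from 1 member.

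Among the 12 genes named for the largest falls were 2 known from the choroid plexus and 7 others with at most 8 UMIs in the members. Ttr, which encodes transthyretin, the main product of choroid plexus epithelium, stood at 0, 0 and 11.2 CPM in members and 493, 940.1 and 112 CPM in the reference (log2 change -6.22 ± 0.30), and its call was lost when cells with markers of other types were left out (-0.74, adjusted p 0.796). Enpp2, also a choroid plexus gene, had 1 UMI in the members. Il7r, the receptor for interleukin 7, stood at 19.3, 10.8 and 47.8 CPM against 117, 81.7 and 112 and fell in every run (-1.77 ± 0.27, adjusted p 5.39e-09). Gimap1, a GTPase gene of lymphoid and myeloid cells, stood at 4.83, 5.38 and 19.7 CPM against 56.6, 57.0 and 47.2 (-2.07 ± 0.39), and Narf at 9.65, 16.1 and 19.7 CPM against 57.9, 44.2 and 52.8 (-1.64 ± 0.36). Snapc3, Tmem229b, Zkscan14, Zfp780b, Gsg1, Ak1 and Klhl5 had 2 to 8 UMIs each in the members. Snapc3 stayed called without each of the runs in turn, and the other 6 each lost the call without at least 1 run: Tmem229b without run 1 or run 3 (adjusted p 0.0923 and 0.235), Zkscan14 without run 1 or run 2 (0.202 and 0.139), Gsg1 (0.191 and 0.333) and Klhl5 (0.219 and 0.474) without run 1 or run 3, Ak1 without run 2 (0.125) and Zfp780b without runs 1, 2 and 3 in turn (0.0678, 0.15 and 0.0526).

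Within the members, several transcripts followed the number of Ccl3 and Ccl4 UMIs, as shown over bins of cells with at most 1 lipid-state gene and under 20 MHC class II UMIs. Ccl2 was highest from 20 chemokine UMIs on: in runs 1, 2 and 3 it stood at 35.9, 94.5 and 54.0 CPM at 6 to 9 UMIs, 24.4, 309 and 249 at 10 to 19 and 1973, 1907 and 3495 at 20 or more. Il1a stood at 83.7, 94.5 and 94.5 CPM at 6 to 9 and 254, 427 and 383 CPM at 20 or more. Both genes rose over the member bins in every run, apart from Ccl2 of run 1 between the lower bins. Cd63 and P2ry12 had changed before the threshold was reached: Cd63 stood at 341, 419 and 331 CPM at 0 chemokine UMIs, 664, 808 and 512 at 1 to 2 and 1146, 1479 and 787 at 3 to 5. P2ry12 stood at 3805, 5052 and 3647 CPM at 0, 3481, 4273 and 3214 at 1 to 2 and 2349, 3262 and 2809 at 3 to 5. The highest bin held 16, 24 and 16 cells, the bin of 10 to 19 held 9, 9 and 29, and the bin of 6 to 9 held 14, 8 and 32, so each of these values rests on few cells. In the highest bin, the top cell of runs 1, 2 and 3 held 95, 118 and 102 of the 743 Ccl2 UMIs in members. Another cell of run 3 held 93. Median depth per cell in the highest bin was 4720.0, 5050.0 and 4720.5 UMIs against 4385.5, 3406.5 and 3648 in the bin of 0, and the median of Fos, Egr1, Ier2 and Jun UMIs was 3.5, 5.5 and 16 against 0, 0 and 3; their part in the trend was not tested.

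**Figure D5:**
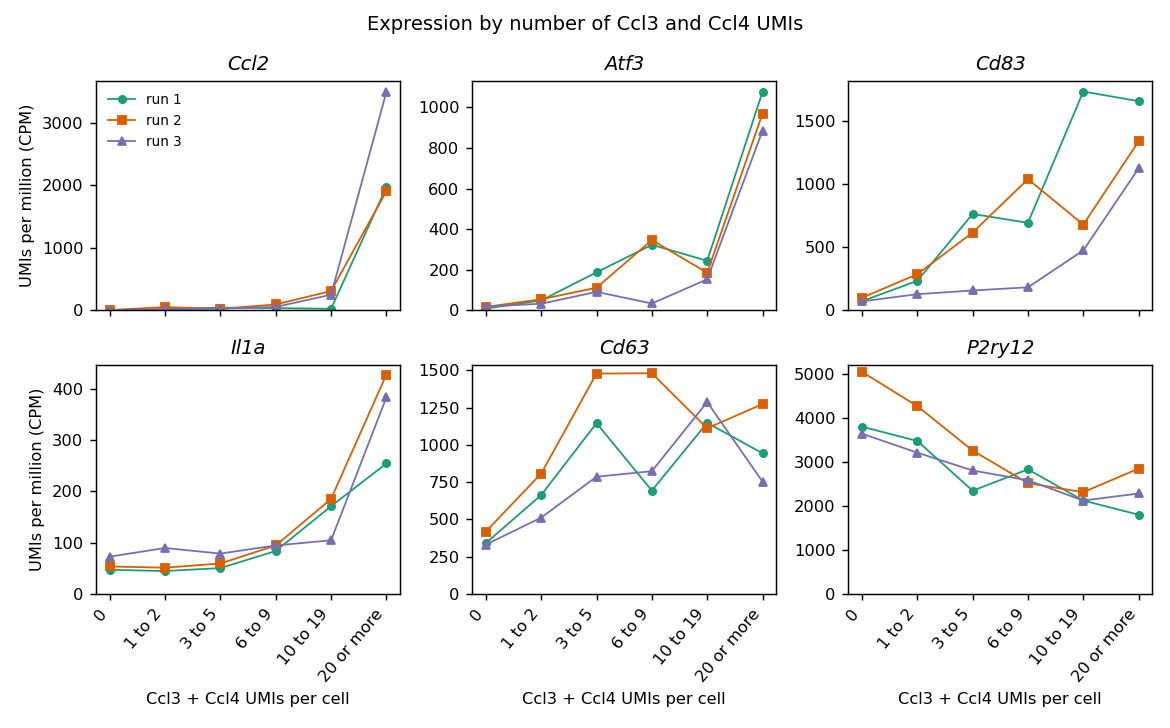
CPM of 6 genes in cells grouped by their Ccl3 and Ccl4 UMIs, for each run (points joined by lines). Ccl2, Atf3 and Il1a are highest in every run at 20 or more chemokine UMIs, and P2ry12 falls from the bin of 0 to that of 3 to 5.

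The 144 cells with 3 to 5 chemokine UMIs, which met the rule in every other way, were compared with the same reference. They numbered 19, 29 and 96 in runs 1, 2 and 3. The edgeR test called 236 of 11244 genes (2.1%), 141 higher and 95 lower, and the count was 107 without run 1 and 91 without run 2. Since both comparisons share the reference, the values are set side by side only. Cd83 changed by 2.35 ± 0.15 in these cells and by 3.56 in members, Atf3 by 3.00 ± 0.29 and 5.21, and Csf1 by 3.49 ± 0.36 and 4.56. Cd63 changed by 1.53 ± 0.11 and 1.57, Selplg by -0.60 ± 0.09 and -0.63, and Il1a by 0.09 ± 0.25 (adjusted p 0.977) and 1.93. Disease-associated genes were called higher in 10 of 28, homeostatic genes lower in 6 of 24, and immediate early and feedback genes outside AP-1 higher in 8 of 27. Interferon-responsive genes were higher in 8 of 20, with a median log2 change of 1.38, beside 5 of 20 and 0.94 in the members.

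To place the members beside lipid-associated microglia, they were compared with 89 cells that had at least 3 lipid-state genes and under 6 chemokine UMIs (43, 28 and 18 in runs 1, 2 and 3). It uses the same members as the comparison with the reference, so values of both stand side by side only. This comparison was added after cell numbers had been seen, and the lipid-state genes that separate the groups were not tested. The edgeR test called 285 of 3218 genes (8.86%), 158 higher in the members (4.91%) and 127 lower (3.95%). Leaving out run 3 reduced the count to 39 and DESeq2 gave 98. Ccl2 stood at 806, 1319 and 930.0 CPM in members and 10.9, 6.75 and 15.4 CPM in the lipid-state cells (log2 change 6.37 ± 0.28, adjusted p 3.42e-10), and Il1a at 169, 328 and 166 CPM against 27.2, 40.5 and 53.9 (2.45 ± 0.30). Atf3 was higher by 3.06 ± 0.36. Of immediate early and feedback genes outside AP-1, 11 of 17 were higher, and of homeostatic genes 10 of 24 were higher and none lower, among them P2ry12 (2283, 2702 and 2354 CPM against 1481, 1518 and 800.4; 0.95 ± 0.15) and Selplg (0.91 ± 0.15), both lost without run 3 (adjusted p 0.0665 and 0.0773). Disease-associated genes outside the rule were lower in 14 of 22 and higher in none. Their median log2 change was -0.85, beside -0.02 for all genes tested there. The groups were chosen by lipid-state genes, which belong to the same state. These values are therefore a description and not independent evidence of a difference in that state. Cd63 stood at 883, 1281 and 969 CPM against 2230.1, 3399.5 and 2878 (-1.46 ± 0.12) and Capg, an actin-capping protein gene, at 19.3, 37.7 and 50.6 CPM against 139, 263 and 154 (-2.30 ± 0.31). Glycolysis genes were lower in 6 of 13. The lipid-state cells were deeper, with a median of 7035, 5408.5 and 6245 UMIs, and had a higher median share of mitochondrial UMIs, 4.0, 3.24 and 5.48% against 2.90, 2.48 and 2.86% in members; their part in these differences was not tested.

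Only 13 cells combined 6 or more chemokine UMIs with 3 or more lipid-state genes (4, 4 and 5 in runs 1, 2 and 3). Against these, 29 of 1983 genes were called (1.46%), 23 higher in the members and 6 lower. The members are again the same cells, and the groups were again chosen by lipid-state genes. Ccl2 had 743 UMIs in members and 7 in the 13 cells (806, 1319 and 930.0 CPM against 149, 45.5 and 0; log2 change 3.79 ± 0.52, adjusted p 5.90e-10). Atf3 had 359 against 7 UMIs (2.78 ± 0.53), and Pdgfb 329 against 9 (2.29 ± 0.50; adjusted p 0.0516 without run 1). Cables1, with 82 UMIs against 0, was at least 3.47-fold higher, taking 3 counts over the group as the limit of a count of 0. Adrb1, which encodes an adrenergic receptor, had 113 against 1 UMIs and was called as well, but not without run 2 or run 3 (adjusted p 0.184 and 0.186). Cd63 was lower in the members (883, 1281 and 969 CPM against 1957, 4685 and 2971), but not called without any 1 of the runs (adjusted p 0.119, 0.0566 and 0.104 without runs 1, 2 and 3), and Mif, the gene of a cytokine kept in stores, was lost without run 2 or run 3 (adjusted p 0.0785 and 0.0823). One of the 13 cells, in run 3, carried T or NK cell markers at 11579 CPM of the run's sum. The count of calls was 13 without run 2, 9 without run 3 and 12 without cells holding markers of other types.

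Members occurred in cells of both sexes. Among cells assigned by Xist or Y-linked transcripts, the share of members was 0.547, 0.737 and 1.18% in female cells and 0.340, 0.372 and 1.27% in male cells of runs 1, 2 and 3, from 71 female and 34 male members, so the order of the sexes was reversed in run 3. The difference between members and reference was compared between the sexes by an interaction term, which called 10 of 10051 genes (0.0995%) with 5 in each direction. The male side rests on 8, 5 and 21 members, and DESeq2 and the fit without the block called 0 genes, with 359 and 473 at an unadjusted p under 0.05.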

How the data were processed

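Single-cell RNA of tdTomato+ hippocampal cells was measured in 3 runs, each 1 library with a deposited matrix of UMI counts. Cell Ranger, Seurat 4.0 and mm10 are named in the submitters' processing notes, and per the file headers the counting software was version 3.0.2 for run 1 and 3.1.0 for runs 2 and 3. The deposited counts were whole numbers that were not normalized, over 31053 genes, with 34140879, 24717907 and 24225612 UMIs in 7255, 6895 and 6226 barcodes of runs 1, 2 and 3; each run had lowest totals of 500 to 501 UMIs, and 6993, 6720 and 6078 cells passed the filters of the rule. Whether exonic or intronic reads were counted is not given in the sources used here.

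For each run, the counts of each population were added up and fitted with edgeR 4.0.16 (TMM scaling, filterByExpr, quasi-likelihood test, run as a block, Benjamini-Hochberg threshold 0.05; R 4.3.3, limma 3.58.1). The block was used because both sums of a run come from 1 library; deviations of the paired sums correlated at 0.444, 0.568 and 0.409 over 3932 genes. DESeq2 1.42.0, other cell filters, depth-matched cells and leaving out each run were alternatives. On simulated counts modelled on members against the reference (11405 genes), 56% of genes changed by a log2 value of 1 and 90% of those changed by 2 were recovered, with 7.01% false calls. Whether these shares hold for the measured counts, with their rare genes and differences between runs, was not tested. Cells were handled in Python 3.11.15 with pandas 2.3.3, numpy 2.4.6, scipy 1.17.1 and matplotlib 3.10.9. Female cells had at least 2 Xist UMIs and no Y-linked UMI, male cells a Y-linked UMI and no Xist.

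The members, gene lists and tests were chosen with earlier results of these data known. Named genes were up to 12 per direction with the largest log2 change of at least 1, an adjusted p under 0.05, 20 CPM in the higher population and 1 direction in all 3 runs, and 4 per list with the largest change at 5 CPM or more. Other list members named for their role, and the comparison with lipid-state cells, were added after values were seen. A few genes that the rule names are not reported here. Intervals and limits cover counting error only.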

Additional observations from a re-analysis of the deposited data

Results flagged for a closer look

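The 5 largest called differences between male and female cells in the contrast of members with the reference are given here because an interaction term passed the threshold, and none of them was called by DESeq2 or without the run block, which called 0 genes each. Apoe stood at 1661, 18919 and 3329.6 CPM in male members and 969, 1876 and 2344 CPM in female members of runs 1, 2 and 3, against 947, 1104 and 1157 and 1122, 1015 and 1019 CPM in male and female reference cells. The interaction was 1.64 ± 0.16 on the log2 scale (edgeR, adjusted p 2.72e-20), and 1 cell held 54.1% of the UMIs of the male members. The wide spread of male members between runs entered little into this SE and p-value. Tnfrsf12a, the receptor for the cytokine TWEAK, had 32, 4 and 17 UMIs in female members and 1, 0 and 3 in male members (-2.84 ± 0.67, adjusted p 0.0252).

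The other 3 genes had no UMI in the members of 1 sex, so no fold is given. Ifi204, an interferon-induced DNA sensor, had 0 UMIs in female members and 1, 5 and 4 in male members (edgeR, adjusted p 0.0109), from 6 of 34 cells. Cybb, which encodes the catalytic subunit of the phagocyte NADPH oxidase, had 0 UMIs in female members and 0, 10 and 5 in male members, from 3 cells (adjusted p 0.0167). Mrpl46, a mitochondrial ribosomal protein gene, had 5, 6 and 9 UMIs in female members and 0 in male members (adjusted p 0.0489).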

How the results depend on the processing

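The share of members averaged between 0.584 and 0.938% when a run was left out and was 0.283% at a threshold of 20 Ccl3 and Ccl4 UMIs, chosen with 12 after seeing the data; the other alternatives moved it by less than 1 SD between runs. For members against the reference, the 705 calls became 148 against reference cells matched in depth and equal in number (3522 genes tested), 355 among cells with none of the lipid-state genes, 411 with DESeq2 and 153 with no run block, and 375 to 642 when a run was left out. Leaving the block out ended the calls of 52 of the single genes recomputed in the comparison with the reference and reversed none. The other 87 kept their status, and these include the genes called in neither fit. Many of the calls given for single genes therefore depend on the block. Lost calls are given at single genes mainly for left-out runs, so a gene without such a remark was not always stable. Over 15 alternatives, P2ry12, Selplg and Cxcl16 each lost the call in 1, Sall1 in 2 and H2-K1 in 4. Egr1, Jun and Fos lost it in 1, 2 and 3. The alternatives counted include the fit without cells high in these genes. Since these genes chose the cells left out, that fit does not bear on their own stability. Against the 13 cells with both signatures, the 29 calls became 6 without the block, 6 with DESeq2, 70 with no filter on low counts, 18 without cells with Xist and Y-linked UMIs, 12 without cells with markers of other types, 10 with stricter cell filters and 9 to 20 when a run was left out. For cells with 3 to 5 chemokine UMIs, the 236 calls became 21 without the block, 75 with DESeq2, 110 without cells with markers of other types and 91 to 194 when a run was left out. For the interaction with sex, the 10 calls became 0 without the block, 0 with DESeq2, 4 without cells with markers of other types, 5 with stricter filters and 4 to 10 when a run was left out. Against lipid-state cells, the 285 calls became 65 without the block, 98 with DESeq2, 50 with stricter filters and 39 to 204 when a run was left out. The cause of these shifts was not tested, except that the matched reference holds as few cells as the members and so tests fewer genes. Of the named genes in members against the reference, 1 called change reversed: Ifit2, at -0.60 with a threshold per 10000 UMIs and -0.23 with stricter filters. Genes called in neither fit changed sign in 57 of 532 values, between -1.04 and 0.52 on the log2 scale. Alternatives that left a gene with 0 UMIs in a population gave no value for it, and a stricter limit of 4 lipid-state genes could not be run, since run 1 then held 0 cells. Depth limits the rare genes: 3959 of 11274 tested genes had under 10 UMIs in the members.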

Other observations

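Detection was also compared at equal depth. After each cell was thinned to 2000 UMIs, Ccl2 was detected in 27.9% of 154 members and 0.535% of 17572 reference cells, beside 36.9 and 1.03% before thinning. Atf3 was detected in 37.7 and 2.87% (49.7 and 5.16% before), Cd83 in 58.4 and 14.0% (67.5 and 23.9% before), Csf1 in 19.5 and 1.49% (30.6 and 2.97% before) and Il1b in 7.14 and 0.137% (8.28 and 0.236% before). Egr1 was detected in 38.3 and 6.82% after thinning, and in the reference this came almost wholly from run 3, at 0.0770, 0.101 and 23.1% in runs 1, 2 and 3. Genes whose summed level was not called could differ little in detection after thinning. Tgfb1 was detected in 59.1 and 61.5% (88.5 and 81.7% before) and Rel in 15.6 and 16.4% (35.03 and 29.1% before). Their log2 changes of the summed level were 0.16 and 0.29, neither called. Egr1 was held by 36 of the 58 members with Ccl2 and by 80 of all 157 members. In run 1, the 16 members with no Fos, Egr1, Ier2 or Jun UMI had a median of 10 Ccl3 and Ccl4 UMIs, against 20 in the other members. The medians were 11.5 (12 members) and 33 in run 2, and 8.5 (2 members) and 10 in run 3.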
